A study of Mus musculus with 16 samples.

Results

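De novo lipogenesis turns citrate from glucose into fatty acids. Its mouse genes here were the 2 lipogenic transcription factors Srebf1 (SREBP1) and Mlxipl (ChREBP) and 8 enzymes, Fasn, Acly, Acaca, Acacb, Elovl6, Scd1, Scd2 and Me1. The genes were chosen by name for their role in the pathway, and all 10 of them, of 30214 gene names on the array, had at least 1 probe above background. The samples were 16 one-colour arrays of RNA from AML12, a mouse hepatocyte line. Cells carried an shRNA that was either scramble or directed against eIF6, both induced by doxycycline, and all cells received insulin for 1 h (100 nM in the methods and in one label, 100 mM in another label). RNA from sucrose gradients was divided into subpolysomal and polysomal pools, which gave 4 groups of 4 arrays: scramble subpolysomal, scramble polysomal, eIF6 shRNA subpolysomal and eIF6 shRNA polysomal. No group lacked doxycycline or insulin, so the values describe insulin-stimulated cells and no response to insulin. The methods call the samples biological quadruplicates.

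In hepatocytes, insulin acts on this pathway mainly through SREBP1, a membrane-bound factor that is cut to release its active part, and glucose acts through ChREBP. Both factors switch on the enzymes. Acly makes cytosolic acetyl-CoA from citrate, the acetyl-CoA carboxylases Acaca and Acacb convert it to malonyl-CoA, and Fasn joins the units to palmitate with NADPH that Me1 helps to supply. Elovl6 lengthens palmitate to stearate, and Scd1 and Scd2 put in a double bond. The malonyl-CoA made by Acacb at the mitochondrion is known to restrain fatty acid oxidation. eIF6 is a translation initiation factor that keeps free large ribosomal subunits from joining small ones too early. The arrays bear on whether its depletion moved these mRNAs on or off polysomes.

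Levels rest on short probe sites, so the sites behind the main results are shown first. Each line gives 30 bases of a 60-base probe, read from the array files in the direction of the mRNA, with positions on mm9. Capitals mark a polyadenylation hexamer where the stretch holds one. Acacb and Elovl6 are shown because they changed, Fasn and Srebf1 because they are the central enzyme and factor, and both Mlxipl probes because they gave opposite signs.
Acacb, plus strand, chr5:114700732-114700761: ctgaaagagctgcaaAATAAActatttttt
Elovl6, plus strand, chr3:129341248-129341277: cctaggccctaaacccatattcagagggaa
Fasn, minus strand, chr11:120667696-120667725: attggtagggtacaaaggtgttcagaggat
Srebf1, minus strand, chr11:60012694-60012723: ggtcggcatccacaggccgcacacttccaa
Mlxipl, brighter probe, plus strand, chr5:135613705-135613734: ggcatcttgcatgaatgtagatgtgtgtgt
Mlxipl, dimmer probe, plus strand, first bases of the probe at chr5:135614195-135614252: tccgaatatattctagaactgggcatggtg
The hexamer AATAAA or ATTAAA lay in 4 of the 17 member probes used (1 of Acacb, 1 of Acly and an overlapping pair of Acaca) and in 16.7% of all 39429 probes. The dimmer Mlxipl probe shared a run of 15 bases, on either strand, with probes of 9 other gene names, against 0 to 2 for every other member probe. No annotation of mm9 was used here, so exon and UTR are not given for these sites.

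Between 20177 and 24953 of the 39429 probes were well above background on an array, and no spot was saturated. Eif6, the targeted mRNA, was lower on eIF6 shRNA polysomes, at a log2 signal of 11.89 ± 0.08 (SD, n = 4) against 12.95 ± 0.01 in scramble cells. In subpolysomal RNA it ranged from 11.49 to 11.74 against 11.53 to 11.66, so the fall was seen in the polysomal pool alone. Of 10 hepatocyte markers, 8 were well above background on all 16 arrays, and Alb, the gene of albumin, was above background on 7. Every slide held 1 array of each group.

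Among the lipogenic genes, the eIF6 shRNA lowered Acacb in both pools and Elovl6 on polysomes, and none was called higher in either pool. Acacb fell 2.77-fold on polysomes and 2.32-fold in subpolysomal RNA, where its probe was above background on 2 of 4 eIF6 shRNA arrays, and both falls were smaller with another background correction. Elovl6 fell 1.41-fold on polysomes. Srebf1, Mlxipl, Fasn, Acly, Acaca, Scd1, Scd2 and Me1 did not pass the test in either pool. Changes are eIF6 shRNA minus scramble on the log2 scale, from the linear models of limma with Benjamini-Hochberg adjustment over 19365 genes and a threshold of 0.05. On polysomes, 2 of 10 members were lower against a background of 10.7% of all genes, and 0 were higher against 11.1%. At an unadjusted p under 0.05 the counts were 2 and 1, against 2895 and 3238 of the 19365 genes. In subpolysomal RNA, 1 member was lower against 12.3%, and 0 were higher against 11.8%. There the unadjusted counts were 2 and 0, against 3386 and 3524 of the 19365 genes. The median polysomal change was 0.15 over the members and 0.02 over all genes, and the median subpolysomal change was −0.05 and 0.02.

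**Figure D1:**
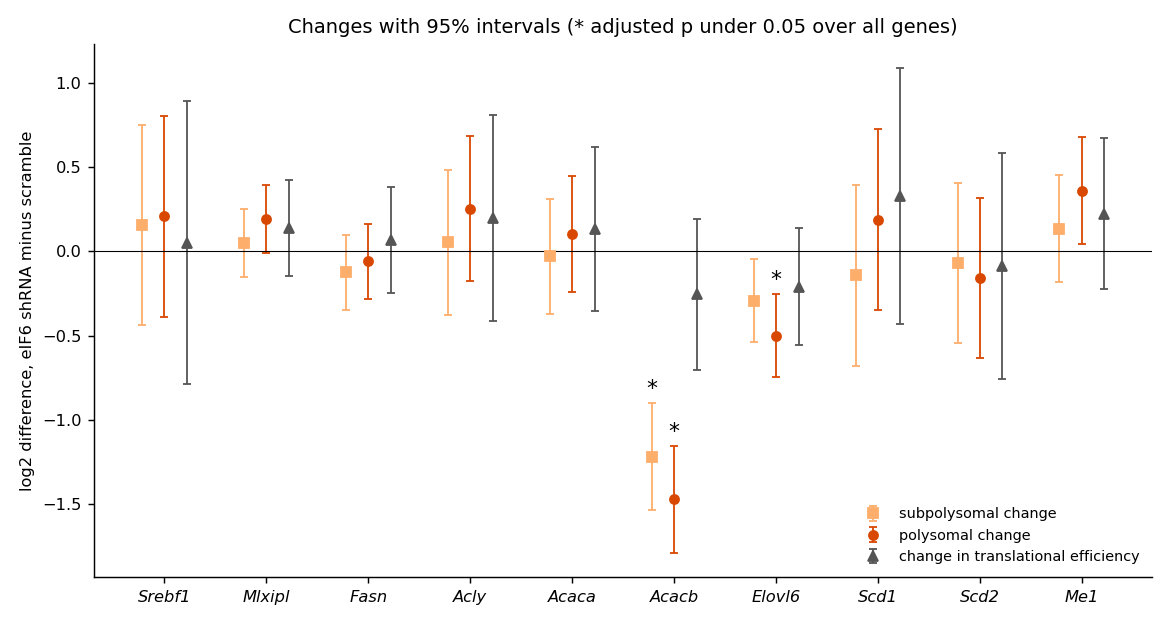
Change of each gene with the eIF6 shRNA (log2 difference from scramble, y axis) in subpolysomal RNA (squares), in polysomal RNA (circles) and in translational efficiency (triangles, polysomal minus subpolysomal change), with 95% intervals from limma over 4 arrays per group. Stars mark Acacb in both pools and Elovl6 on polysomes, the changes past an adjusted p of 0.05.

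Acacb, the mitochondrial acetyl-CoA carboxylase, had log2 signals of 5.47, 5.37, 5.20 and 5.63 on scramble polysomes. On eIF6 shRNA polysomes the signals were 3.74, 3.69, 4.27 and 4.08. All 4 shRNA arrays lay below all 4 scramble arrays. The polysomal change was −1.47 ± 0.15 (SE, n = 4 per group, limma adjusted p = 2.94e-06). Subpolysomal signals were 4.84, 5.06, 5.09 and 4.72 in scramble cells and 3.62, 3.53, 3.69 and 4.00 in eIF6 shRNA cells, again without overlap. The subpolysomal change was −1.22 ± 0.15 (limma adjusted p = 2.61e-05). On the 4 slides taken separately, the change ran from −1.94 to −1.10 on polysomes and from −1.44 to −0.84 in subpolysomal RNA. Acacb is read by a single dim probe, which stood well above background throughout 3 groups and on 2 of 4 eIF6 shRNA subpolysomal arrays. The second Acacb probe was above background on 1 of 16 arrays and was not used. With another background correction that adds an offset of 50 to every signal (normexp), the changes shrank to −0.45 and −0.29 and still passed the test. Scaled to spike-in probes the subpolysomal change was −1.37 and missed the threshold (limma adjusted p = 0.177).

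Elovl6, the elongase of palmitate, had log2 signals of 10.15, 9.89, 9.78 and 10.19 on scramble polysomes and of 9.46, 9.63, 9.36 and 9.56 on eIF6 shRNA polysomes. The highest shRNA array thus lay below the lowest scramble array. Its polysomal change was −0.50 ± 0.11 (limma adjusted p = 0.00495), and it ran from −0.59 to −0.32 over the 4 slides. In subpolysomal RNA, signals were 8.86, 9.25, 8.88 and 8.83 in scramble cells and 8.65, 8.61, 8.77 and 8.62 in eIF6 shRNA cells. These groups did not overlap either, but the change of −0.29 ± 0.11 missed the threshold (limma adjusted p = 0.0802). With the slide as a block it passed (limma adjusted p = 0.0352). Leaving out replicate 1 of every group took the polysomal change to −0.44 (limma adjusted p = 0.0797), and the call was also lost with scaling to spike-in probes (limma adjusted p = 0.392), at a change of −0.995, which was −0.52 relative to the median gene.

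Marker counts stand against all genes tested, of which 10.7% were lower and 11.1% higher on polysomes and 12.3% and 11.8% in subpolysomal RNA. Mesenchymal markers moved with Acacb and Elovl6. Of 6 such markers (Vim, Col1a1, Col1a2, Col3a1, Pdgfrb and Acta2), 5 were lower in eIF6 shRNA cells in both pools, all were above background on every array, and Vim did not pass the test. Their summed log2 signal was 17.3 to 18.1 on scramble polysomes and 14.7 to 15.4 on eIF6 shRNA polysomes, and 17.0 to 17.1 against 15.9 to 16.2 in subpolysomal RNA. Of 4 macrophage markers, Csf1r was lower in both pools, with summed signals of 8.20 to 8.42 on scramble polysomes and 7.62 to 7.83 on eIF6 shRNA polysomes. Of 4 adipocyte markers, Adipoq, Plin1 and Lep were above background on no array, so Fabp4 alone was tested. It was called lower in both pools and was above background on 9 of 16 arrays. Its log2 signals were 5.88 to 6.12 on scramble and 2.15 to 3.77 on eIF6 shRNA polysomes. In subpolysomal RNA they were 3.43 to 4.42 against 2.25 to 3.07. Fabp4 may have passed the filter only through groups where it was high, so its fall is a description. Of 10 hepatocyte markers, 2 were higher and 0 lower in each pool. In lists this short, 1 of 4 or 2 of 10 does not stand apart from the shares of all genes. Afp, the gene of alpha-fetoprotein, rose by 1.26 on polysomes and 1.19 in subpolysomal RNA, and Ttr, that of transthyretin, by 1.15 and 1.33. The other hepatocyte markers did not pass the test and had both signs. On polysomes, Alb, Apoe, Serpina1a, Trf and Hnf4a changed by −0.29 to −0.21, and Apoa1, Krt8 and Krt18 by 0.15 to 0.62. The summed hepatocyte signal was 18.4 to 19.0 on scramble and 18.5 to 19.0 on eIF6 shRNA polysomes. Most of this sum was Krt18, a keratin gene at 17.8 to 18.5 over all arrays, so it says little about the other hepatocyte markers. The part of these cell types in the changes of Acacb and Elovl6 was not tested. In RNA from a whole culture, fewer cells of a type and less RNA per cell cannot be told apart.

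The gene whose profile over the 16 arrays was closest to that of Acacb was Ogn, which encodes the matrix protein osteoglycin, at a root mean square difference of 0.221 after centring each gene. Gli3, a transcription factor of Hedgehog signalling, followed at 0.222, next to a probe with no gene symbol at 0.222, while the median over 13336 genes was 0.823. The profile closest to Elovl6 was that of Yipf5 at 0.115, followed by Pvrl1, a nectin, at 0.125 and by an unnamed probe at 0.126, against a median of 0.611 over 13335 genes.

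**Figure D2:**
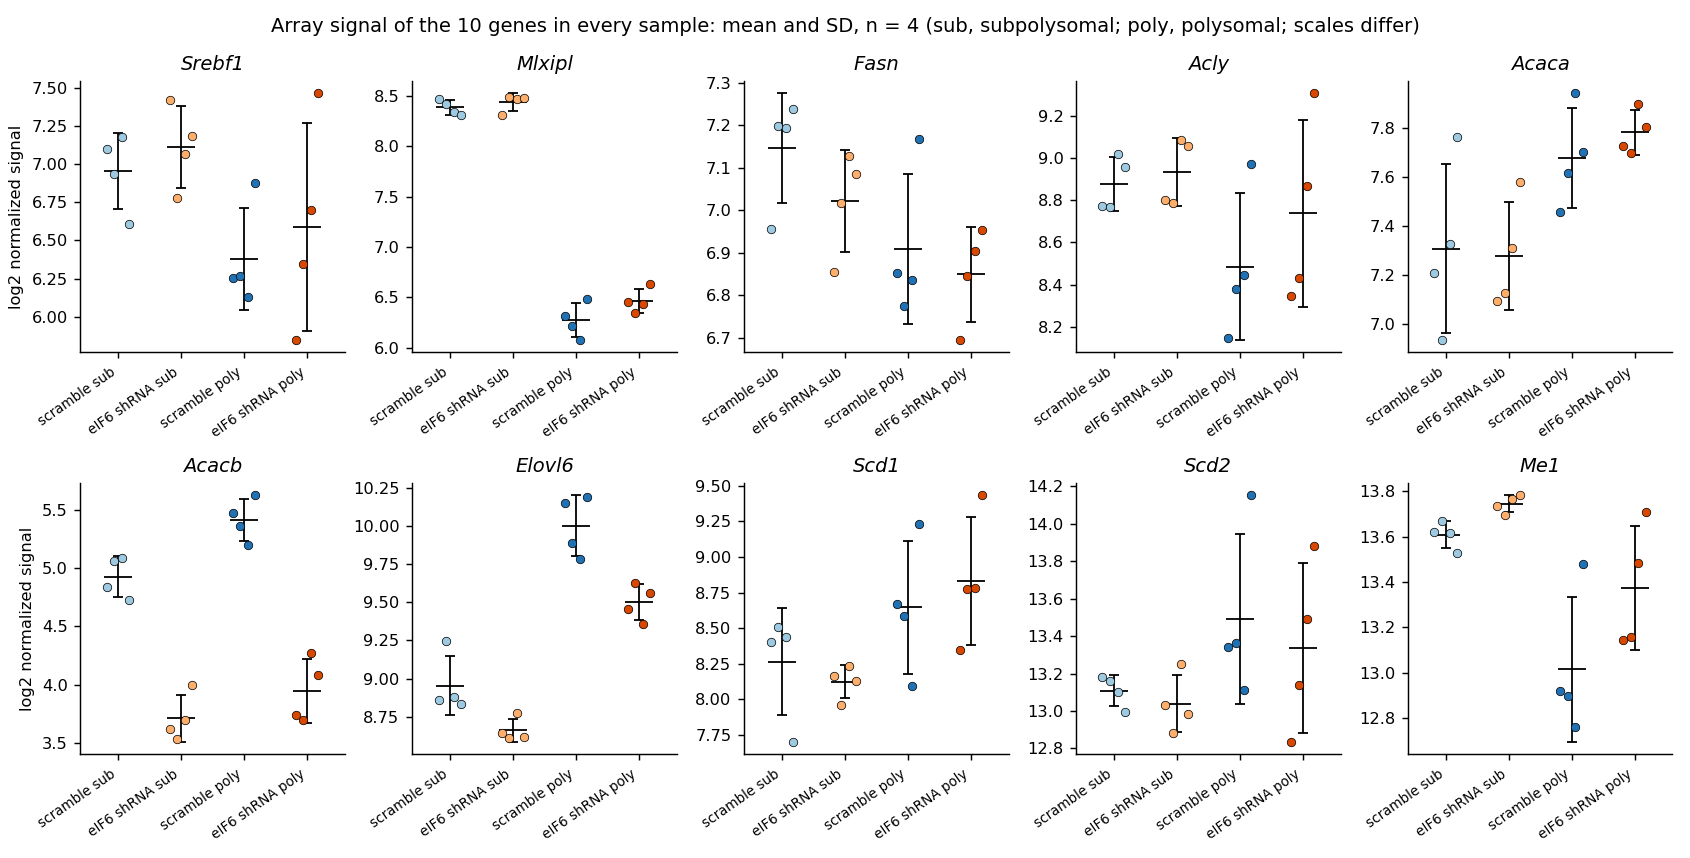
Normalized log2 signal (y axis, a separate scale in each panel) of the 10 genes in the 4 arrays of each group, with the mean and SD as bars. Acacb and Elovl6 separate by shRNA within each pool, Mlxipl separates by pool, and replicate 4 (the rightmost point of a group) is the highest polysomal array of both shRNAs for 7 genes.

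Both transcription factors were measured. Srebf1 had log2 signals of 6.25, 6.27, 6.13 and 6.87 on scramble polysomes and of 5.85, 6.35, 6.70 and 7.46 on eIF6 shRNA polysomes. The shRNA arrays spanned the whole scramble range, and the change was 0.21 ± 0.28 (95% interval −0.39 to 0.80, limma adjusted p = 0.687). In subpolysomal RNA, signals were 6.61 to 7.18 and 6.78 to 7.42, with a change of 0.16 (95% interval −0.44 to 0.75). These intervals are wide, so a smaller change of either sign was not detectable with 4 arrays per group.

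The mean of both Mlxipl probes changed little, by 0.19 ± 0.09 on polysomes (limma adjusted p = 0.186) and by 0.05 ± 0.09 in subpolysomal RNA (limma adjusted p = 0.751), but its probes disagreed. The brighter probe read 7.42, 7.41, 7.41 and 7.77 on scramble polysomes and 8.02, 7.87, 8.25 and 8.28 on eIF6 shRNA polysomes. All 4 shRNA arrays were higher, and in a fit over 25260 single probes the change was 0.60 ± 0.11 (limma adjusted p = 0.00124). In subpolysomal RNA that probe rose from 9.45 to 9.63 in scramble cells to 9.84 to 10.12 in eIF6 shRNA cells, by 0.46 ± 0.11 (limma adjusted p = 0.00901). The dimmer probe went the other way, from 4.74 to 5.21 on scramble polysomes to 4.61 to 4.97, a change of −0.22 ± 0.13 (limma adjusted p = 0.285). Its subpolysomal change was −0.36 ± 0.13 (limma adjusted p = 0.0641). This is the probe that shares 15-base runs with probes of 9 other gene names. Both probes lie within 1 kilobase of chromosome 5, and which of them reads the Mlxipl mRNA was not tested.

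**Figure D3:**
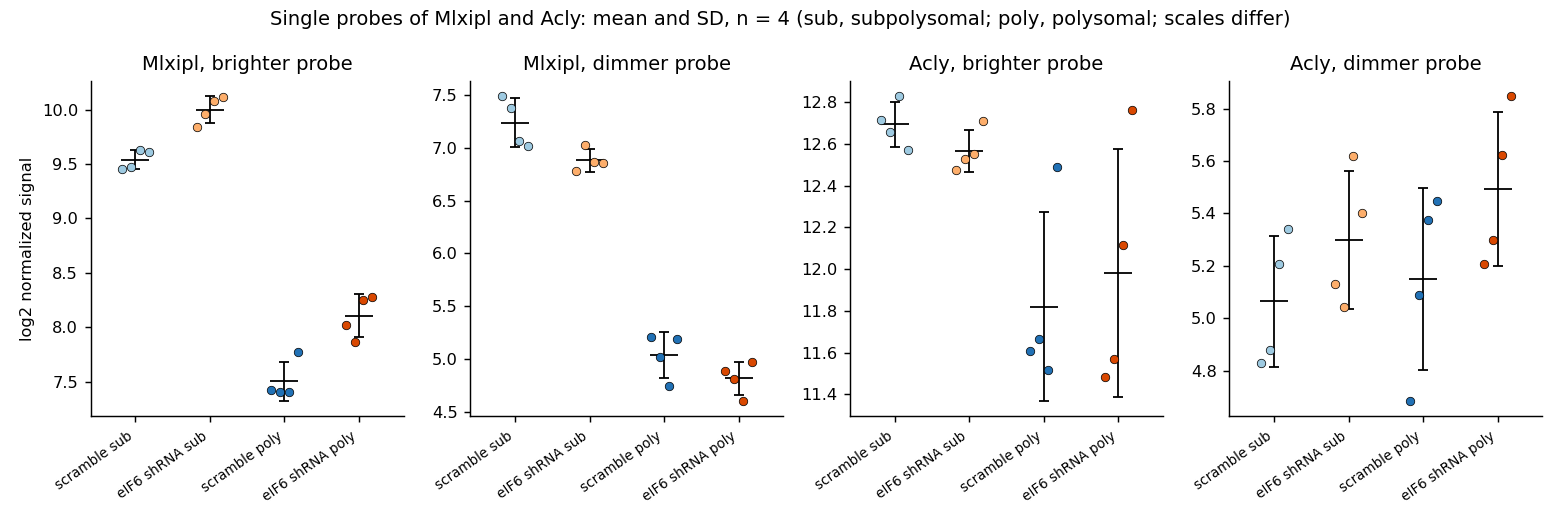
Normalized log2 signal (y axis, a separate scale in each panel) of single probes of Mlxipl and Acly in the 4 arrays of each group, with the mean and SD as bars. The brighter Mlxipl probe is higher and the dimmer one lower in eIF6 shRNA cells, and both are lower on polysomes than in subpolysomal RNA.

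Fasn, the multi-enzyme that makes palmitate, did not pass the test in either pool. Its log2 signals were 6.85, 6.77, 6.84 and 7.17 on scramble polysomes and 6.70, 6.85, 6.90 and 6.95 on eIF6 shRNA polysomes. The groups overlapped almost fully. The polysomal change of −0.06 had a 95% interval of −0.28 to 0.16, and the subpolysomal change of −0.12 one of −0.35 to 0.10 (limma adjusted p = 0.774 and 0.429). A fall as large as that of Acacb lies outside both intervals.

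Acly, which supplies acetyl-CoA, has a bright probe (log2 signals of 11.5 to 12.8) and a dim one (4.68 to 5.85). Averaged, its change was 0.25 ± 0.20 on polysomes and 0.05 ± 0.20 in subpolysomal RNA, and neither passed the test. The bright probe changed by 0.16 ± 0.25 on polysomes and −0.13 ± 0.25 in subpolysomal RNA. The dim one changed by 0.34 ± 0.20 and 0.23 ± 0.20, and no value of a single probe passed the test. Acaca, the cytosolic acetyl-CoA carboxylase, has 4 probes. A bright pair shares a run of 55 bases and so counts as 1 site, at log2 signals of 10.6 to 11.5, and the other two are dim, at 1.87 to 5.66. On polysomes the bright pair changed by −0.12 ± 0.12 and −0.09 ± 0.11 and the dim probes by 0.30 ± 0.38 and 0.33 ± 0.30. The mean of all 4 probes changed by 0.10 ± 0.16 (limma adjusted p = 0.734).

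The desaturases also gave overlapping groups. Scd1 ranged from 8.09 to 9.23 on scramble polysomes and from 8.34 to 9.43 on eIF6 shRNA polysomes, with a change of 0.19 ± 0.25. Scd2 ranged from 13.1 to 14.2 and from 12.8 to 13.9, with a change of −0.16 ± 0.22. Their subpolysomal changes were −0.14 ± 0.25 and −0.07 ± 0.22.

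Me1, the cytosolic malic enzyme, had the highest polysomal change of the members, 0.36 ± 0.15, which did not pass the test (limma adjusted p = 0.105). Its log2 signals were 12.92, 12.90, 12.76 and 13.48 on scramble polysomes and 13.15, 13.16, 13.48 and 13.71 on eIF6 shRNA polysomes. A single scramble array, replicate 4, overlapped the shRNA arrays. Without it the change was 0.52 (limma adjusted p = 0.00576), and without the polysomal replicate 4 of both shRNAs it was 0.41 (limma adjusted p = 0.00605). The first omission takes out the array that overlapped, and the second was added after seeing the data. Neither replaces the test over all arrays. All 3 Me1 probes had positive changes on polysomes, of 0.25 to 0.49. In subpolysomal RNA the 4 shRNA arrays (13.70 to 13.78) lay above the 4 scramble arrays (13.53 to 13.67), yet the change of 0.14 ± 0.15 did not pass the test.

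Replicate 4 stood apart in polysomal RNA. It was the highest array for 9 of 10 members among the scramble polysomes and for 7 of 10 among the eIF6 shRNA polysomes, and for 7 in both. Scd2 reached 14.2 in scramble replicate 4 against 13.1 to 13.4 on the other scramble polysomes. How often replicate 4 was highest over all genes was not counted, so these counts do not set the members apart from other genes. The deviations of the 2 polysomal replicate 4 arrays from their group means correlated at 0.41 over all genes. Without both of them, Acacb and Elovl6 were again the members lower on polysomes, and Me1 was higher.

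No member passed the test of a different response in the 2 pools. The change in translational efficiency, polysomal minus subpolysomal change, ran from −0.25 ± 0.21 in Acacb to 0.33 ± 0.35 in Scd1. Of 10 members, 0 were lower (background 1.11%) and 0 higher (0.403%), which is near the shares of all genes. At an unadjusted p under 0.05 the members were also 0 and 0, against 1422 lower and 999 higher of 19365 genes. With so few genes called, these counts do not show that the calls on polysomes lack a counterpart in translational efficiency. For Elovl6 the value was −0.21 (95% interval −0.56 to 0.14), for Fasn 0.07 (−0.25 to 0.38) and for Srebf1 0.05 (−0.79 to 0.89). Standard errors of 0.13 to 0.39 set how small a difference could have been seen. The median was 0.10 over the members and 0.02 over all genes.

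The study analysed the G/C content of whole UTRs ahead of the coding sequence. Another measure was used here, the G/C content of the 50 bases after each start in the RefSeq table of GRCm38.p6. That table holds 8 of the 10 genes with 12 starts. The 50 bases may be a part of the UTR or run past it, so the values cannot be set against those of the study. The 2 genes that changed were at 48.0% (Acacb) and 52.0% (Elovl6), below the median of 56.0% over 32851 starts. Fasn and both Mlxipl starts stood at 70.0%, Acly at 68.0% and Acaca at 42.0%. Srebf1 had starts at 54.0%, 60.0% and 70.0%, and Me1 at 60.0% and 88.0%. These values describe 8 genes and no test was made. Which starts AML12 cells use was not measured, and Scd1 and Scd2 have no entry.

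The 10 mRNAs were spread differently over the gradient. Polysome association is the log2 difference between polysomal and subpolysomal signal. Arrays were scaled to equal distributions, so 0 means the position of the typical mRNA and not an equal split. In scramble cells, Elovl6 stood highest at 1.05 ± 0.11 (limma adjusted p = 1.83e-06) and Acacb at 0.49 ± 0.15 (limma adjusted p = 0.0100). Mlxipl was lowest at −2.12 ± 0.09 (limma adjusted p = 1.93e-10), with all 4 polysomal arrays at 6.08 to 6.48 and all 4 subpolysomal ones at 8.31 to 8.47. Me1 followed at −0.60 ± 0.15 (limma adjusted p = 0.00288). The call of Acacb was lost without replicate 1 or replicate 4 of all groups (limma adjusted p = 0.0660 and 0.0629), with no filter on dim probes (limma adjusted p = 0.232) and with scaling to the 75th percentile, where the value was −0.026 (limma adjusted p = 0.888). These were 2 members lower against a background of 28.4% and 2 higher against 31.7%.

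Between these ends lay Scd2 (0.39 ± 0.22), Scd1 (0.38 ± 0.25), Acaca (0.37 ± 0.16), Fasn (−0.24 ± 0.10), Acly (−0.39 ± 0.20) and Srebf1 (−0.57 ± 0.28), which did not pass the test. Neighbours among Scd2, Scd1 and Acaca differed by less than their standard errors, as did Srebf1 and Me1. For Acly, the bright probe had −0.87 ± 0.25 (limma adjusted p = 0.00764) and the dim one 0.09 ± 0.20. Without replicate 4 of the scramble polysomes, 5 members were lower instead of 2, with Srebf1 at −0.73, Acly at −0.55 and Fasn at −0.32.

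In eIF6 shRNA cells, 2 members were again lower (background 28.7%), Mlxipl at −1.98 ± 0.09 (limma adjusted p = 4.32e-10) and Me1 at −0.37 ± 0.15 (limma adjusted p = 0.0419). Higher were 3 (background 32.1%), Elovl6 at 0.84 ± 0.11, Scd1 at 0.71 ± 0.25 and Acaca at 0.50 ± 0.16 (limma adjusted p = 1.74e-05, 0.0235 and 0.0136). The call of Me1 was lost without any 1 of scramble subpolysomal replicates 1 to 3, the 4 eIF6 shRNA subpolysomal arrays or eIF6 shRNA polysomal replicates 1 and 2 (limma adjusted p of 0.0505 to 0.121). That of Scd1 was lost without eIF6 shRNA subpolysomal replicate 2 (limma adjusted p = 0.0578) or polysomal replicate 4 (limma adjusted p = 0.0822). Scaled to the 75th percentile, Me1 was at −0.23 (limma adjusted p = 0.122) and Acaca at 0.20 (limma adjusted p = 0.326), and neither was called. With that scaling Acacb was called lower, at −0.61 (limma adjusted p = 0.00163). One dim Acaca probe was above background on 4 of 4 polysomal but 1 of 4 subpolysomal arrays of each shRNA, so it passed the filter only through the pool where it was higher. The brightest Acaca probe had 0.06 ± 0.12, and with probes above background on all arrays the gene had 0.11 (limma adjusted p = 0.413). Scaled to equal distributions, Acacb, at 0.24 ± 0.15, was not called here (limma adjusted p = 0.184). That its value passed in scramble cells and not in eIF6 shRNA cells does not show a difference between them, since its change in translational efficiency of −0.25 (95% interval −0.70 to 0.19) did not pass the test. Scaled to spike-in probes, the median gene moved to 1.52 in scramble cells and 1.30 in eIF6 shRNA cells, and Mlxipl was the single member below 0 in each, where it was not called (limma adjusted p = 0.280 and 0.220). Relative to that median, Mlxipl stood at −2.11 and −2.00, Elovl6 at 1.27 and 1.06 and Me1 at −0.18 and −0.005.

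**Figure D4:**
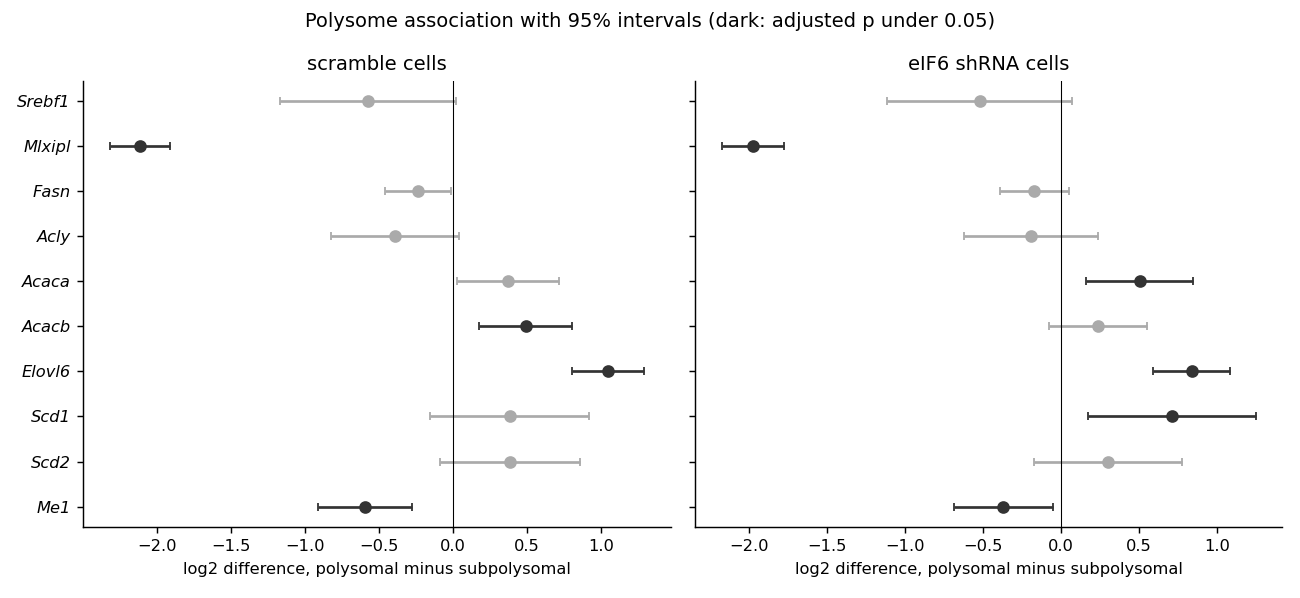
Polysome association of the 10 genes (x axis, log2 polysomal minus subpolysomal signal, scaled so that 0 is about the median gene) in scramble and eIF6 shRNA cells, with 95% intervals from limma over 4 arrays per pool. Mlxipl lies near −2 and Elovl6 near 1 in both, and dark points passed an adjusted p of 0.05.

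Genes around the pathway were followed in 5 lists. Their counts stand against all genes tested, of which 10.7% were lower and 11.1% higher on polysomes and 12.3% and 11.8% in subpolysomal RNA. Of 12 tested partners and targets of ChREBP, 2 were lower and 2 higher with the eIF6 shRNA, the same 4 genes in both pools, and the median change was −0.11 on polysomes and 0.08 in subpolysomal RNA against 0.02 for all genes in each. The arrestins Arrdc4 and Txnip, known as glucose-induced ChREBP targets that restrain glucose uptake, fell by 1.93 and 0.75 on polysomes and by 1.19 and 0.58 in subpolysomal RNA. Pklr, liver pyruvate kinase, rose by 0.94 in each pool, and Khk, fructokinase, by 0.46 on polysomes and 0.98 in subpolysomal RNA. Known targets of ChREBP thus moved in both directions. All 8 values passed limma's test, with adjusted p of 7.06e-08 to 0.00152.

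Partner enzymes of fatty acid elongation, desaturation and activation had 25 tested members, of which 1 was lower and 5 higher on polysomes and 2 lower and 3 higher in subpolysomal RNA (all genes 10.7%, 11.1%, 12.3% and 11.8%). Ptplad2, which belongs to the dehydratases of the elongation cycle, fell by 1.94 on polysomes (limma adjusted p = 3.27e-06). In subpolysomal RNA it was well above background on no eIF6 shRNA array, and scramble cells had at least 3.43-fold more (limma adjusted p = 2.18e-06). Scd3, a further stearoyl-CoA desaturase, rose by 0.59 on polysomes, Elovl7 by 0.42 and Ptplad1 by 0.34. Elovl7 rose by 0.43 and Tecr, the reductase that ends the elongation cycle, by 0.55 in subpolysomal RNA, while Ptpla fell by 0.34. The list's median was 0.12 in each pool against 0.02 for all genes.

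Among 21 tested genes of triglyceride assembly and storage, 4 were lower and 5 higher on polysomes, and 1 was lower and 7 higher in subpolysomal RNA (all genes 10.7%, 11.1%, 12.3% and 11.8%), with medians of 0.20 and 0.25. The phosphatidate phosphatases split. Lpin3 fell by 1.55 on polysomes and fell by 1.50 in subpolysomal RNA, whereas Lpin1 rose by 0.80 and 1.17. Lpin2 rose by 0.67 and 0.45 and was called in both pools. Cidec, a lipid droplet protein, was well above background on 4 of 4 scramble polysomal arrays and on none of the other groups. Scramble polysomes had at least 2.21-fold more than eIF6 shRNA polysomes. It is among the 4 counted as lower, but it passed the filter only through the group where it was high, so this is a description. Plin4, another droplet protein, rose by 0.95 on polysomes and 0.81 in subpolysomal RNA, and Pnpla2, the triglyceride lipase, by 0.45 in subpolysomal RNA. In translational efficiency, 1.11% of all genes were lower and 0.403% higher. The 5 lists had 12, 25, 21, 22 and 8 genes tested, and the 1 call among them is near these shares. That gene was Mogat2, a monoacylglycerol acyltransferase. It had −0.95 ± 0.12 (limma adjusted p = 0.000608), from a fall by 0.52 on polysomes and a rise of 0.44 in subpolysomal RNA.

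Of 22 genes that control SREBP1, 1 was lower and 2 higher on polysomes, and 1 was lower and 3 higher in subpolysomal RNA (all genes 10.7%, 11.1%, 12.3% and 11.8%), with medians of 0.09 and −0.06. Most of these shares were below those of all genes. The called genes were AMP kinase subunits and Usf2. Prkaa2, a catalytic subunit of this kinase that inhibits lipogenesis, rose by 0.79 in each pool, and Prkag2 by 0.37 and 0.43. Prkag1 fell by 0.34 on polysomes and Prkab2 by 0.41 in subpolysomal RNA. Usf2, a transcription factor, rose by 0.51 in subpolysomal RNA. Of 8 genes of NADPH supply beside Me1, 0 were lower in either pool, 1 was higher on polysomes and 2 were higher in subpolysomal RNA, against the same shares of all genes. Me3, a mitochondrial malic enzyme, rose by 0.72 and 0.48, and Aldh1l1, of folate metabolism, by 0.83 in subpolysomal RNA (medians of the list 0.16 and 0.17).

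**Figure D5:**
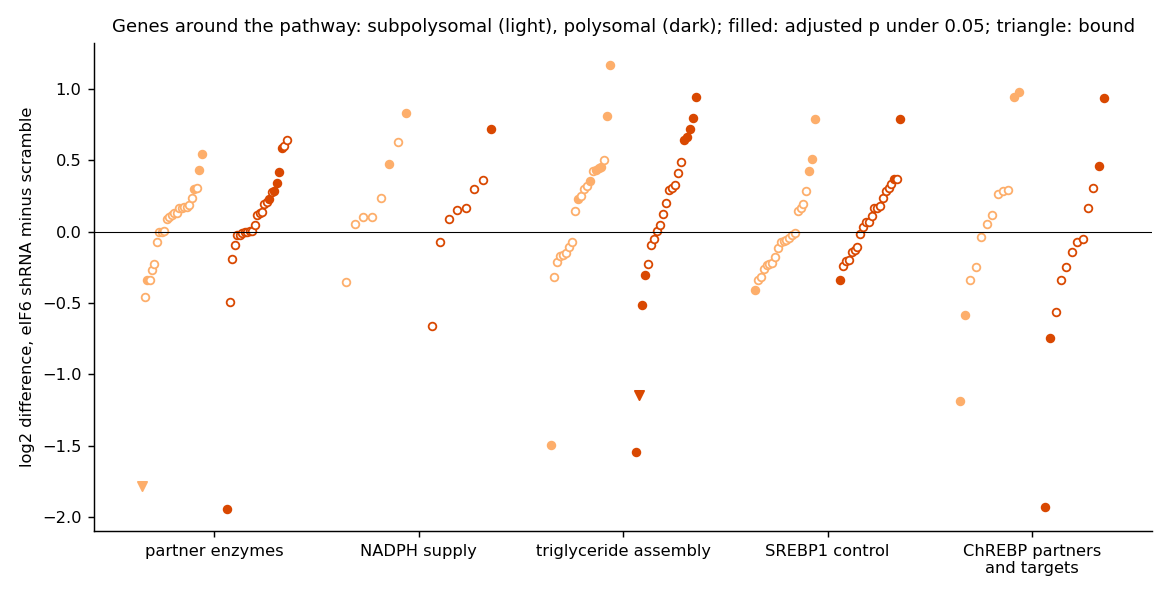
Change of each tested gene of the 5 lists with the eIF6 shRNA (y axis, log2 difference from scramble) in subpolysomal (light) and polysomal RNA (dark), ordered by size within a list, where filled points passed an adjusted p of 0.05. Triangles, Cidec on polysomes and Ptplad2 in subpolysomal RNA, stand at the bound of a gene above background on no eIF6 shRNA array, and of the other polysomal values Ptplad2 at −1.94 and Arrdc4 at −1.93 are the lowest.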

How the data were processed

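The authors hybridized polysomal and subpolysomal RNA of AML12 cells to one-colour Agilent arrays. The deposited files hold an intensity per spot from Feature Extraction (10.7.3.1 in the file headers, 10.7.7.1 in the submitters' processing notes), corrected for background and not scaled between arrays, with probe positions on mm9. A deposited log2 table of the authors, quantile normalized with a median of 4.64 on every array, was used as an alternative.

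Spots flagged as outliers were dropped, spots of a probe averaged, and a probe was kept if 2 or more arrays of any group had it well above background. Log2 intensities were quantile normalized, and kept probes of a gene name averaged (19365 genes). Group means were fitted with limma 3.58.1 in R 4.3.3, with 5 contrasts and Benjamini-Hochberg adjustment at 0.05. P values measure the spread between the samples given as replicates. The number of arrays limits the precision. The fit was tested on simulated data. Figures were drawn with matplotlib 3.10.9.

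The members and lists were chosen with earlier results of these data known. All 10 members are reported as the mean of their kept probes, and changes of single probes are given for some comparisons. From each list the text names called genes, at most the 4 largest changes per comparison, and for called members the 3 genes of closest profile. Lpin2 is named beyond this rule, beside Lpin1 and Lpin3 of its family. Alternatives were 75th percentile and spike-in scaling, normexp, 3 other filters, the brightest probe, the authors' table, slide and replicate blocks and left-out arrays. Added after seeing the data were the omission of the polysomal replicate 4 and the test of single probes. Marker lists covered hepatocytes, bile duct (0 of 4 called in either pool), mesenchymal cells, macrophages, endothelium (0 of 2 tested called) and adipocytes.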

Additional observations from a re-analysis of the deposited data

Results flagged for a closer look

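Of the 40 sets of 4 arrays (10 members in 4 groups), 4 had an array whose gap to the nearest of the others took more of the set's range than the 95% critical value of Dixon allows. Chance gives about 5% of such sets. In scramble subpolysomal RNA, Elovl6 was 9.25 in replicate 2 against 8.83 to 8.88 in the others (a gap of 0.891 of the range), Scd1 was 7.70 in replicate 4 against 8.40 to 8.51 (0.870), and Fasn was 6.96 in replicate 1 against 7.19 to 7.24 (0.848). In eIF6 shRNA subpolysomal RNA, Mlxipl was 8.31 in replicate 1 against 8.47 to 8.49 (0.869). These arrays differed from gene to gene.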

How the results depend on the processing

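The 32 alternatives gave 0 members lower and 0 higher in translational efficiency each time. Acacb stayed called lower on polysomes in all 31 alternatives that tested it, and in subpolysomal RNA in 29 of 30. Elovl6 stayed called on polysomes in 30 of 32. On polysomes, the members lower went from 2 to 1 with spike-in scaling (Acacb) and with probes above background on all arrays (Elovl6, as Acacb was then not tested). The members higher went from 0 to 1 with 75th percentile scaling (Me1), normexp (Mlxipl) and without the polysomal replicate 4 (Me1), and to 2 with the brightest probe (Mlxipl and Me1). In subpolysomal RNA, the members lower went from 1 to 0 with spike-in scaling and with probes above background on all arrays and to 2 with the slide block, and the members higher from 0 to 1 with the brightest probe. Leaving out arrays gave 1 to 2 members lower and 0 to 1 higher on polysomes, and 1 lower and 0 higher in subpolysomal RNA each time.

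Polysome association depended on the scaling. In scramble cells, members lower went from 2 to 5 (75th percentile), 0 (spike-in), 4 (normexp) and 5 (without the polysomal replicate 4), and members higher from 2 to 8 (spike-in), 1 (probes above background on all arrays) and 1 (no filter). In eIF6 shRNA cells, members lower went from 2 to 4 (75th percentile), 0 (spike-in), 1 (no filter) and 4 (without the polysomal replicate 4), and members higher from 3 to 7 (spike-in). The calls over all genes moved with the scaling too. With the 75th percentile, genes lower went from 5498 to 7310 of 19365 in scramble and from 5553 to 7774 in eIF6 shRNA cells. With spike-in scaling, genes higher went from 6133 to 13412 and from 6224 to 11224. With normexp, 5348 genes were lower in scramble cells. Without the polysomal replicate 4, genes lower were 5685 and 5782 of 19016. Leaving out arrays gave 2 to 5 members lower and 1 to 3 higher in scramble cells, and 1 to 3 lower and 2 to 3 higher in eIF6 shRNA cells. With spike-in scaling 4 members changed sign in scramble and eIF6 shRNA cells, Acly (1.18 and 1.14), Fasn (1.28 and 1.14), Me1 (1.34 and 1.30) and, not called either way, Srebf1 (0.88 and 0.75). With the 75th percentile Acacb went to −0.026 in scramble cells, where its call was lost. In eIF6 shRNA cells it went from 0.24, not called, to −0.61, called lower (limma adjusted p = 0.00163). The calls of Me1 and Acaca in eIF6 shRNA cells were lost. Scd2 was called higher in scramble and eIF6 shRNA cells (0.59 and 0.48). Of the changes with the shRNA, 6 on polysomes, 4 in subpolysomal RNA and 6 in translational efficiency had another sign with spike-in scaling, and none of these was called. The cause was not tested beyond the shift of the median gene. That shift on polysomes and in subpolysomal RNA was −0.47 and −0.23 with spike-in scaling, and relative to it Acacb had −1.67 and −1.14, Elovl6 −0.52 and −0.34 and Me1 0.38 and 0.17. Of all genes called on polysomes 49.1% were lower, and 91.3% with spike-in scaling. In translational efficiency these shares were 73.3%, 87.9% (75th percentile) and 93.9% (spike-in), from 214, 427 and 31 genes lower.

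Same-numbered arrays correlated, in deviations from group means, at −0.16 to −0.003 between scramble pools and −0.04 to 0.41 between polysomal groups. Of all 24 pairs, 3 exceeded 0.1. Pairing by number was not settled. With the number as a fixed replicate block, 4 members in place of 2 were lower in polysome association of scramble cells, and no other count moved by more than 1.5 times. With the culture as a random block (consensus correlation −0.04), all counts were as without it.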
